A study of Homo sapiens with 6 samples.

Results

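Transcripts of 10 heat shock protein and chaperone genes were followed in the human prostate cancer line PC3 and in PC3-DR, its docetaxel-resistant derivative. The genes were HSP90AA1, HSP90AB1 and HSP90B1 of the HSP90 family, HSPA1A, HSPA1B, HSPA5, HSPA8 and HSPA9 of the HSP70 family, HSPD1 of the chaperonins and HSPB1 of the small heat shock proteins. They were taken by Ensembl transcript identifier, 1 per gene, and all 10 were found among the 102731 transcripts of the deposited mRNA table, with 0 absent. Other transcripts of these genes are not analysed here, so each value is that of a single listed transcript and not of its gene.

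PC3 is an established line from a bone metastasis of prostate cancer and was labelled docetaxel sensitive. PC3-DR was derived from it with docetaxel, a taxane that stabilises microtubules, first in 5 cycles of 48 h at 4 and 8 nM and then in 12 cycles of 48 h at 8 and 12 nM. The drug was afterwards kept in the medium from 10 nM upwards in 5 nM steps to 50 nM, and the line was held at 40 nM for 1 month. The labels describe 1 derived line, do not say whether it is a clone or whether the drug was present at harvest, and give 3 parallel samples per group without naming separate cultures, so p-values measure only the spread between these samples, which may be technical.

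Heat shock proteins bind unfolded or partly folded proteins, prevent their aggregation and help them to fold. HSP70 proteins bind short hydrophobic stretches in a cycle driven by ATP, HSP90 acts later on client proteins such as kinases and steroid receptors, the chaperonin HSP60 encloses proteins in a chamber in mitochondria, and small heat shock proteins hold unfolded proteins without ATP. The stress-inducible members are switched on by HSF1, which binds heat shock elements, whereas those of the endoplasmic reticulum (ER) are induced by the unfolded protein response through ER stress response elements. In prostate cancer HSP90 is known as a chaperone of the androgen receptor, and HSPB1 (HSP27) as a protein linked to survival after therapy.

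Levels are in FPKM, a read number scaled for transcript length and library total, so that levels of different transcripts can be set side by side. Library totals read off the values were between 14411000 and 16186000 in 5 libraries and 43153000 in PC3-DR replicate 1. That library also held fewer transcripts at 1 FPKM or more, 14943, where the rest held between 22650 and 29399. Genes that mark PC3 or other cell types were not analysed here, because no table used here pairs the transcript identifiers with symbols. For the same reason co-chaperones, HSF1 and the other genes of the chaperone network were not analysed here.

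Of the 10 transcripts, 8 were at 1 FPKM or more in every library, and these 8 stood among the most abundant of the table. HSP90AA1 was the highest by mean level, in place 73 of the 102731 transcripts, followed by HSPB1 in place 96, HSPA5 in place 123, HSP90B1 in place 125, HSPA1B in place 142 and HSPA1A in place 146. The mitochondrial chaperones HSPD1 and HSPA9 came in places 264 and 278. HSPA8 was in place 1046 and varied widely between libraries. HSP90AB1 was in place 79912 and was below 1 FPKM in every library.

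**Figure D1:**
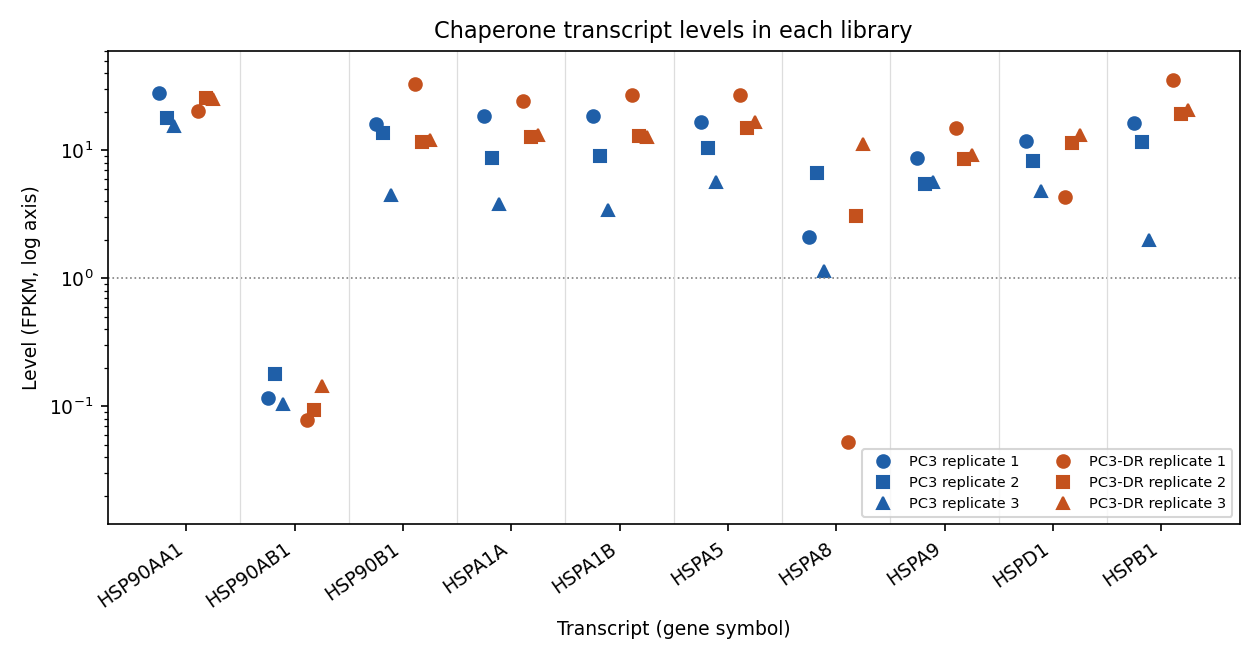
Level of each chaperone transcript in each of the 6 libraries, in FPKM on a log axis, with 1 point per library, blue for PC3 and orange for PC3-DR; the dotted line is 1 FPKM. Of the transcripts, 8 lie above the line in every library, HSP90AB1 lies below it in every library, and HSPA8 runs from 0.053 to 11.1 FPKM.

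None of the transcripts passed the test between the lines. Of the 10, 9 reached 1 FPKM in at least 3 libraries and were tested, and 0 of these 9 had an adjusted p under 0.05 in limma on log2(FPKM + 1) with Benjamini-Hochberg adjustment over 24937 transcripts. Of all tested transcripts, 0.00401% rose at this threshold and 0% fell. At an unadjusted p under 0.05, limma gave 1 of the 9, HSPB1, against 6.1% of all tested transcripts in either direction and 2.45% with the higher mean in PC3-DR. On recovered reads, limma's voom also gave 0 of the 9 at an adjusted p under 0.05, and 2 at an unadjusted p under 0.05, against 9.33% of all transcripts tested that way.

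HSPB1 (ENST00000248553) encodes HSP27, a small heat shock protein that holds unfolded proteins and binds the actin cytoskeleton. It stood at 16.3, 11.6 and 1.98 FPKM in replicates 1 to 3 of PC3, and at 35.6, 19.1 and 20.6 FPKM in those of PC3-DR. All 3 PC3-DR libraries lay above all 3 PC3 libraries, with PC3 replicate 3 far below the rest and PC3-DR replicate 1 the highest. It averaged 9.96 ± 7.30 FPKM over the PC3 libraries and 25.1 ± 9.09 FPKM over the PC3-DR libraries (SD, n = 3 each), 2.52-fold higher in PC3-DR. The difference of mean log2(FPKM + 1) was 1.54 ± 0.63 (SE), with an unadjusted 95% interval from 0.15 to 2.93 and an adjusted p of 0.786 in limma. The exact permutation p was 0.1, two-sided, which is the smallest that 3 against 3 allows. HSPB1 was the single member of the 10 whose groups did not overlap, where 4.11% of tested transcripts had all PC3-DR libraries above all PC3 libraries, 6.97% the reverse and 11.1% either. Without PC3 replicate 3 the difference was 0.77, without PC3-DR replicate 1 it was 1.27, and without both it was 0.50. The groups did not overlap in any of these, but then 5.52%, 11% and 15% of tested transcripts, in this order, also had all PC3-DR libraries above all PC3 libraries, and 16.2%, 18.3% and 19.0% of those that reached 5 FPKM in 3 or more libraries. PC3 replicate 3 held 26 HSPB1 reads, which allow a level between 1.30 and 2.91 FPKM by an exact Poisson 95% interval that covers counting error only.

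HSPA1A (ENST00000375651) and HSPA1B (ENST00000375650) are neighbouring genes without introns that encode the stress-inducible HSP70, with almost the same sequence. HSPA1A stood at 18.6, 8.65 and 3.80 FPKM in replicates 1 to 3 of PC3, and at 24.4, 12.7 and 13.1 FPKM in those of PC3-DR. HSPA1B stood at 18.5, 9.004 and 3.41 FPKM in the PC3 replicates and at 27.1, 12.9 and 12.8 FPKM in the PC3-DR replicates, in the same order. Both were highest in PC3-DR replicate 1 and lowest in PC3 replicate 3, and the groups overlapped because PC3 replicate 1 lay above PC3-DR replicates 2 and 3. HSPA1A averaged 10.3 ± 7.52 FPKM over the PC3 libraries and 16.7 ± 6.62 FPKM over the PC3-DR libraries (SD, n = 3 each), with a difference of 0.81 ± 0.54 (SE) of mean log2(FPKM + 1) (limma adjusted p = 0.891). HSPA1B averaged 10.3 ± 7.64 FPKM over the PC3 libraries and 17.6 ± 8.24 FPKM over the PC3-DR libraries (SD, n = 3 each), with a difference of 0.88 ± 0.56 (SE) on the same scale (limma adjusted p = 0.884). Without PC3 replicate 3 the differences were 0.31 for HSPA1A and 0.33 for HSPA1B, without PC3-DR replicate 1 they were 0.52 and 0.54, and without both they were 0.016 and -0.013. Without PC3 replicate 1 they were 1.32 and 1.40. The ratio of HSPA1B to HSPA1A stayed between 0.898 and 1.11 in the 6 libraries, while each level ran over more than 6-fold, 6.41-fold for HSPA1A and 7.94-fold for HSPA1B. How the authors assigned reads that match both copies is not given in the sources used here, so the split between HSPA1A and HSPA1B is uncertain.

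HSPA1A and HSPA1B had near-equal levels in every library, but the split of reads between them is uncertain. Their near-equal levels are therefore not read as a result about upstream sequence. Upstream sequences are shown for this pair, for HSPB1, whose groups did not overlap, and for HSPA8, which varied most. They are the 250 bases before the RefSeq start of each gene, 5′ to 3′, with capitals on heat shock element matches, either of 2 inverted units (GAANNTTC or TTCNNGAA, each its own reverse complement, so that both strands are covered) or of 3 units (the same letters continued by 2 free bases and a 3rd unit in the alternate direction, so that each such match contains matches of 2 units).
HSPA1A promoter, GRCh38.p14 chr6:31815293-31815542, plus strand: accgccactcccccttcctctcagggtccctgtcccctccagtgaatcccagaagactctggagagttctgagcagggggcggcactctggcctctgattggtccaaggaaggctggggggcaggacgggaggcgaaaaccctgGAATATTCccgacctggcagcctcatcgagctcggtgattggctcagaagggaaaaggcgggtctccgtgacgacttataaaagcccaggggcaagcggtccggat
HSPA1B promoter, GRCh38.p14 chr6:31827488-31827737, plus strand: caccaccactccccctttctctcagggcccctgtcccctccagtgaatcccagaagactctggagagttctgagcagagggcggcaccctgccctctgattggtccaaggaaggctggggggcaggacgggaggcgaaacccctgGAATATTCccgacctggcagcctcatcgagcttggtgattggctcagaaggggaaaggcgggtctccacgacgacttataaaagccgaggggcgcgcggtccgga
HSPB1 promoter, GRCh38.p14 chr7:76302423-76302672, plus strand: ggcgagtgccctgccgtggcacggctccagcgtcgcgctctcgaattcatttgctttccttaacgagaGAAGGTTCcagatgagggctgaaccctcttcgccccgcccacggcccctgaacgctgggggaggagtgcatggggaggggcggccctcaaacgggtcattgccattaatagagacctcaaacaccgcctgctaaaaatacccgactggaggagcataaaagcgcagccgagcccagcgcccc
HSPA8 promoter, GRCh38.p14 chr11:123062137-123062386, minus strand: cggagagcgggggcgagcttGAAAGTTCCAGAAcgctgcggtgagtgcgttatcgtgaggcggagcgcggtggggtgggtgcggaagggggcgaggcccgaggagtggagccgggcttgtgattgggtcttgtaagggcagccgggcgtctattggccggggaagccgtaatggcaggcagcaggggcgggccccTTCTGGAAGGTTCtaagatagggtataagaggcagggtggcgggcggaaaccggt

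The HSPA1A and HSPA1B windows were 93.6% identical over a global alignment, with 14 mismatched and 2 gap positions. Each held 1 match of 2 units with the same letters, GAATATTC, whose first base lay 106 bases before the start in HSPA1A and 105 bases before it in HSPA1B. HSPB1 held 1 match of 2 units, GAAGGTTC, from 182 bases before its start. HSPA8 held 2 matches of 3 units, GAAAGTTCCAGAA from 230 bases and TTCTGGAAGGTTC from 55 bases before its start. RefSeq gave 14 windows for the 10 genes, of which 7 windows of 7 genes held a match of 2 units and 4 windows of 4 genes, HSP90AA1, HSP90AB1, HSPA8 and HSPD1, a match of 3 units. Of 35116 RefSeq windows of this length, 11.6% held a match of 2 units and 0.441% one of 3 units. The matches describe these letters only, and a window need not be the start used by the listed transcript.

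HSPA8 (ENST00000227378) encodes HSC70, the constitutive cytosolic HSP70. Its listed transcript stood at 2.09, 6.66 and 1.14 FPKM in replicates 1 to 3 of PC3, and at 0.053, 3.05 and 11.1 FPKM in those of PC3-DR. PC3-DR held both the lowest and the highest library, so the groups overlapped fully. Read numbers recovered from these values were 74, 213 and 36 in PC3 and 5, 107 and 380 in PC3-DR, and 5 reads allow a level between 0.017 and 0.124 FPKM (exact Poisson 95% interval). The highest level was 210.1 times the lowest, against between 1.80 and 17.9 times for the 8 transcripts above 1 FPKM in every library. The difference of mean log2(FPKM + 1) was 0.01 ± 0.80 (SE), with an unadjusted 95% interval from -1.76 to 1.78 (limma adjusted p = 0.998). Without PC3-DR replicate 1 it was 0.92 and without PC3-DR replicate 3 it was -0.84. Without PC3 replicates 1, 2 and 3 in turn it was -0.12, 0.53 and -0.38 and without PC3-DR replicate 2 it was -0.05, so its direction rested on single libraries. In PC3-DR replicate 1, where HSPA8 was lowest, 6 of the other 9 transcripts had their highest level. RefSeq names 20 pseudogenes of HSPA8, and how reads matching several copies were counted is not given in the sources used here.

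HSPA5 (BiP, ENST00000324460) is the HSP70 of the ER and keeps the sensors of the unfolded protein response inactive until unfolded proteins draw it away, and HSP90B1 (GRP94, ENST00000299767) is the HSP90 of the same compartment. HSPA5 stood at 16.7, 10.5 and 5.65 FPKM in replicates 1 to 3 of PC3, and at 27.1, 15.005 and 16.8 FPKM in those of PC3-DR. HSP90B1 stood at 16.1, 13.7 and 4.44 FPKM in the PC3 replicates and at 32.8, 11.5 and 12.0 FPKM in the PC3-DR replicates, in the same order. Both had their lowest level in PC3 replicate 3 and their highest in PC3-DR replicate 1, and both groups overlapped. HSPA5 averaged 10.9 ± 5.52 FPKM over the PC3 libraries and 19.6 ± 6.55 FPKM over the PC3-DR libraries (SD, n = 3 each), and its difference was 0.86 ± 0.46 (SE) of mean log2(FPKM + 1) (limma adjusted p = 0.854). HSP90B1 averaged 11.4 ± 6.17 FPKM over the PC3 libraries and 18.8 ± 12.1 FPKM over the PC3-DR libraries (SD, n = 3 each), and its difference was 0.67 ± 0.56 (SE) on the same scale (limma adjusted p = 0.898). Without PC3 replicate 3 HSPA5 differed by 0.49 and HSP90B1 by 0.15, and without PC3-DR replicate 1 by 0.61 and 0.20. Without both HSPA5 differed by 0.24 and HSP90B1 by -0.31, so the direction of HSP90B1 turned. The ratio of HSPA5 to HSP90B1 lay between 0.765 and 1.40, with overlapping groups.

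The upstream windows of the 2 ER genes are shown because they share a motif that the heat shock members above lack. Capitals mark matches to the ER stress response element (CCAAT, then 9 free bases, then CCACG, sought on both strands).
HSPA5 promoter, GRCh38.p14 chr9:125241344-125241593, minus strand: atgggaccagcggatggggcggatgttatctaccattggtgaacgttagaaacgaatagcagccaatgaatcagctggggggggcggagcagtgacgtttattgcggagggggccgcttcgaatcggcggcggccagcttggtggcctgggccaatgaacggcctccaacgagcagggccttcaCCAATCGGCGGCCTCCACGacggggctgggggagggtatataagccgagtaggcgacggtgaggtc
HSP90B1 promoter, GRCh38.p14 chr12:103930160-103930409, plus strand: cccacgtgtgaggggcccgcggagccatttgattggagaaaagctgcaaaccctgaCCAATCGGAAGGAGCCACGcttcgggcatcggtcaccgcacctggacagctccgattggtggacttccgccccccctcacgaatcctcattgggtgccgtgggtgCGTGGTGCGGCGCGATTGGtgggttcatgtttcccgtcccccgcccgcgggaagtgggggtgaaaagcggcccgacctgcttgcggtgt

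HSPA5 held 1 match, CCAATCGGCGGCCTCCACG, from 66 bases before its start. HSP90B1 held 2 matches, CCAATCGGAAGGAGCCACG from 194 bases and CGTGGTGCGGCGCGATTGG from 89 bases before its start. No other window of the 10 genes held these letters, and 0.0740% of the 35116 RefSeq windows did. Neither ER window held a heat shock element match as spelled above.

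HSP90AA1 (ENST00000216281) encodes the stress-inducible cytosolic HSP90. It stood at 28.1, 18.05 and 15.6 FPKM in replicates 1 to 3 of PC3, and at 20.2, 25.5 and 25.2 FPKM in those of PC3-DR. It was the most even of the 10 across libraries, with a highest level 1.80 times the lowest, and PC3 replicate 1 was the highest library. It averaged 20.6 ± 6.62 FPKM over the PC3 libraries and 23.6 ± 2.95 FPKM over the PC3-DR libraries (SD, n = 3 each), with a difference of 0.23 ± 0.40 (SE) on the log2(FPKM + 1) scale and an unadjusted 95% interval from -0.66 to 1.11 (limma adjusted p = 0.922). This difference was 0.059 without PC3 replicate 3, 0.33 without PC3-DR replicate 1, 0.16 without both and 0.46 without PC3 replicate 1. After quantile normalization of the libraries it was -0.64.

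HSP90AB1 (ENST00000371554) encodes the constitutive cytosolic HSP90, known as one of the more abundant proteins of most cells. Its listed transcript stood at 0.116, 0.179 and 0.104 FPKM in replicates 1 to 3 of PC3, and at 0.0780, 0.0933 and 0.144 FPKM in those of PC3-DR. These values came from between 4 and 9 reads per library, 35 in all, and the groups overlapped. Each exact Poisson 95% interval was wide, from 0.072 to 0.369 FPKM in PC3 replicate 2, the highest library, and from 0.036 to 0.148 FPKM in PC3-DR replicate 1, the lowest. A difference between the lines was not detectable at these read numbers. The difference of mean log2(FPKM + 1) was -0.04, with an exact permutation p of 0.5, two-sided. HSP90AA1 was between 100.8 and 273.2 times as high as the listed HSP90AB1 transcript, and reads assigned to other HSP90AB1 transcripts are not analysed here.

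The mitochondrial chaperones are HSPA9 (mortalin, ENST00000297185), an HSP70 that draws proteins into the matrix, and HSPD1 (HSP60, ENST00000388968), the chaperonin that folds them. HSPA9 stood at 8.65, 5.50 and 5.68 FPKM in replicates 1 to 3 of PC3, and at 14.95, 8.51 and 9.16 FPKM in those of PC3-DR. The groups overlapped only in that PC3 replicate 1 lay just above PC3-DR replicate 2. HSPA9 averaged 6.61 ± 1.77 FPKM over the PC3 libraries and 10.9 ± 3.55 FPKM over the PC3-DR libraries (SD, n = 3 each), and the difference was 0.63 ± 0.39 (SE) of mean log2(FPKM + 1) (limma adjusted p = 0.879). The HSPA9 difference was 0.54 without PC3 replicate 3, 0.39 without PC3-DR replicate 1 and 0.31 without both. HSPD1 stood at 11.9, 8.27 and 4.83 FPKM in the PC3 replicates and at 4.30, 11.3 and 13.2 FPKM in the PC3-DR replicates, in the same order. For HSPD1 the lowest and the highest library were both PC3-DR, replicates 1 and 3. HSPD1 averaged 8.34 ± 3.55 FPKM over the PC3 libraries and 9.62 ± 4.70 FPKM over the PC3-DR libraries (SD, n = 3 each), and the difference was 0.14 ± 0.49 (SE) on the same scale (limma adjusted p = 0.957). Without PC3 replicates 1 and 3 in turn the HSPD1 difference was 0.41 and -0.17, without PC3-DR replicates 1, 2 and 3 in turn it was 0.58, -0.031 and -0.13, and without PC3 replicate 3 and PC3-DR replicate 1 it was 0.27. After quantile normalization it was -0.16. The ratio of HSPD1 to HSPA9 was 0.288 in PC3-DR replicate 1, while the remaining 5 libraries gave between 0.850 and 1.505. RefSeq names 22 pseudogenes of HSPD1 and 2 of HSPA9. It also names 6 of HSP90AB1, 5 of HSP90AA1, 2 of HSPB1 and 1 of HSPA5. Pseudogenes of HSP90B1 that carry another number in their symbol were not sought.

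**Figure D2:**
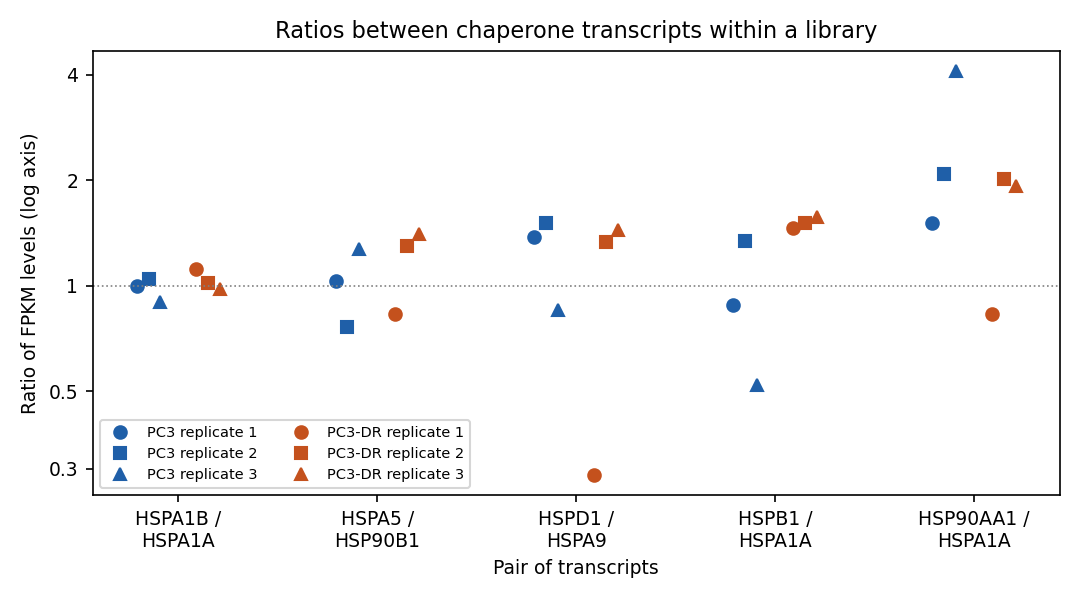
Ratios between the FPKM levels of chaperone transcripts within each library, on a log axis, with 1 point per library, blue for PC3 and orange for PC3-DR; the dotted line is a ratio of 1. HSPA1B to HSPA1A stays near 1, HSPD1 to HSPA9 drops to 0.288 in PC3-DR replicate 1, and HSPB1 to HSPA1A is higher in each PC3-DR library than in each PC3 library. The last ratio was singled out after its values were seen.

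Ratios within a library do not depend on its total. HSPB1 relative to HSPA1A was 0.879, 1.34 and 0.522 in PC3 replicates 1 to 3 and 1.46, 1.51 and 1.58 in PC3-DR replicates 1 to 3. The PC3-DR ratios lay close together and above those of PC3, and this ratio was singled out after its values were seen. Its numerator, HSPB1, is also the member whose groups did not overlap, so the ratio is not a separate result. The share of such ratios over all pairs of transcripts was not computed. HSP90AA1 relative to HSPA1A was 1.51, 2.09 and 4.10 in PC3 and 0.831, 2.01 and 1.92 in PC3-DR, where the groups overlapped and PC3 replicate 3 and PC3-DR replicate 1 lay at the ends.

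The same pair of libraries set both ends for 5 of the 10 members. PC3 replicate 3 was the lowest library for 6 of the 10 transcripts and PC3-DR replicate 1 the highest for 6, with 5 transcripts in both counts (HSP90B1, HSPA1A, HSPA1B, HSPA5 and HSPB1). Another 3 transcripts, HSP90AB1, HSPA8 and HSPD1, were instead lowest in PC3-DR replicate 1. HSP90AA1 was lowest in PC3 replicate 3 but highest in PC3 replicate 1. HSPA9 was highest in PC3-DR replicate 1 but lowest in PC3 replicate 2. The 10 levels summed to 137.1, 92.1 and 46.6 FPKM in PC3 replicates 1 to 3 and to 186.6, 119.8 and 134.2 FPKM in PC3-DR replicates 1 to 3. The sums were highest in PC3-DR replicate 1 and lowest in PC3 replicate 3, with overlapping groups, and made up between 0.037% and 0.134% of all FPKM of the table. In RNA from a whole culture, fewer cells that carry a transcript and less of it per cell cannot be told apart.

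Other well-expressed transcripts moved in the same libraries. Among 794 transcripts that reached 5 FPKM in 3 or more libraries, 8 of the 10 included, 70.3% were lowest in PC3 replicate 3 and 66.2% highest in PC3-DR replicate 1, against 23.6% and 12.0% of all tested transcripts. A transcript could enter this set through the 3 libraries of 1 line alone, so these shares depend in part on the filter. In PC3 replicate 3 the median deviation from the mean over the 6 libraries was -0.98 for the 10 chaperone transcripts, -1.05 for the other transcripts at 5 FPKM and -0.03 for all tested transcripts, on the log2(FPKM + 1) scale. In PC3-DR replicate 1 these medians were 0.85, 0.80 and -0.46. In both libraries the chaperone median lay nearer to that of the other transcripts at 5 FPKM than to that of all tested transcripts. The part of these shifts in the differences between the lines was not tested. The differences of the tested transcripts without these libraries stand beside their values above, and without both the difference of HSPA8 was 0.53.

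**Figure D3:**
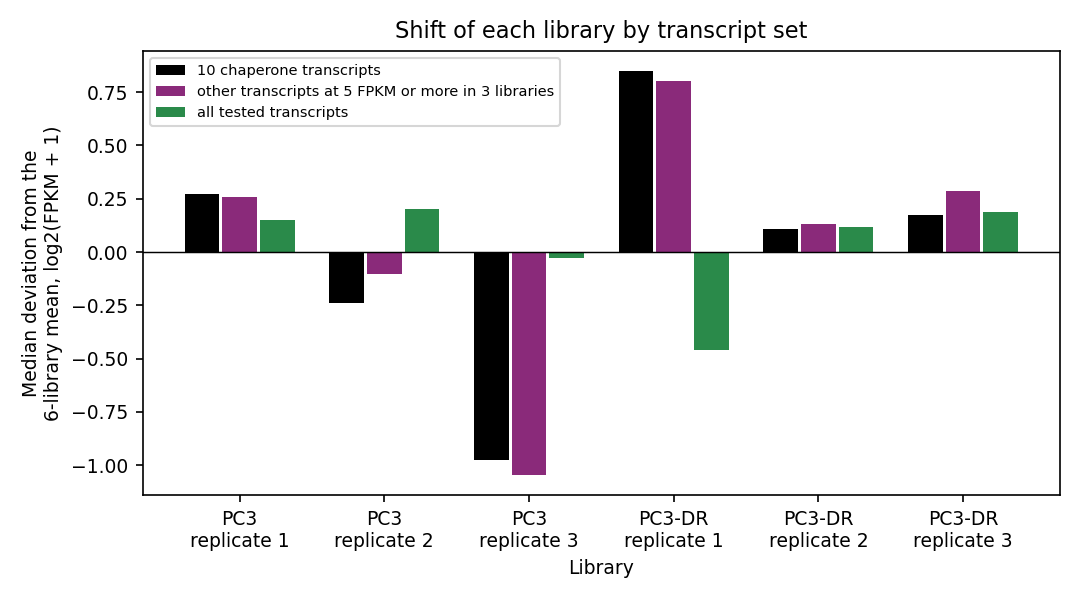
Median deviation of log2(FPKM + 1) from each transcript's mean over the 6 libraries, as bars per library, for the 10 chaperone transcripts (black), the other transcripts that reached 5 FPKM in 3 or more libraries (purple) and all tested transcripts (green). The black and purple bars are alike, at -0.98 and -1.05 in PC3 replicate 3 and at 0.85 and 0.80 in PC3-DR replicate 1, where the green bars are at -0.03 and -0.46.

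As a group, 9 of the 10 transcripts had the higher mean log2(FPKM + 1) in PC3-DR, HSP90AB1 being the exception, and the median difference was 0.65. After quantile normalization 7 of the 9 tested transcripts did, HSP90AA1 and HSPD1 being then lower in PC3-DR, and their median difference was 0.12. With voom on recovered reads also 7 of the 9 did, HSPA8 and HSPD1 being then lower, with a median of 0.90. Over all tested transcripts 39.9% had the higher mean in PC3-DR and the median difference was -0.13, which became 0.02 after rescaling by the median of ratios, while that of the 10 became 0.95. Among the 794 transcripts at 5 FPKM, however, 84.1% had the higher mean in PC3-DR and the median difference was 0.71, beside 0.74 for the 8 chaperone transcripts in that set. Within that set the difference of HSPB1 exceeded that of 92.3% of transcripts, those of HSPA1B, HSPA5 and HSPA1A exceeded 65.2%, 63.6% and 59.7%, and those of HSP90B1, HSPA9, HSP90AA1 and HSPD1 exceeded 46.3%, 44.0%, 23.3% and 19.0%. In that set 15.9% had all PC3-DR libraries above all PC3 libraries. A transcript could enter that set through the PC3-DR libraries alone. Its shares, its medians and the members' places in it therefore depend in part on the filter.

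Leaving out libraries moved these values. Without PC3 replicate 3, 7 of the 10 transcripts had the higher mean in PC3-DR and their median difference was 0.23, beside 0.31 for the transcripts at 5 FPKM. Without PC3-DR replicate 1, 9 of the 10 did, with medians of 0.53 and 0.51. Without both, 7 of the 10 did, with medians of 0.20 and 0.13, and the single transcript with all PC3 libraries above all PC3-DR libraries was then HSP90B1, where 17.2% of tested transcripts did the same. Over all tested transcripts the share with the higher mean in PC3-DR was 35.3% without PC3 replicate 3, with a median difference of -0.18, but 55.0% without PC3-DR replicate 1, with a median of 0.05, and 48.2% without both, with a median of -0.02.

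**Figure D4:**
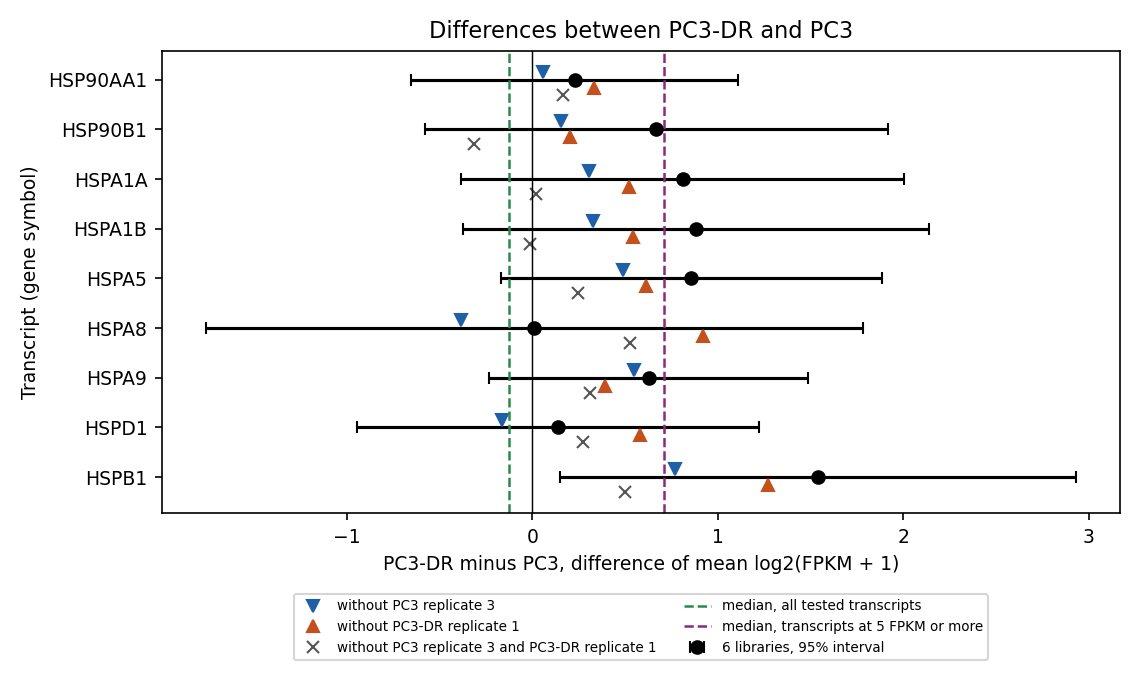
Difference of mean log2(FPKM + 1), PC3-DR minus PC3, for the 9 tested chaperone transcripts, with unadjusted 95% intervals from limma (black) and the values without PC3 replicate 3 (blue), without PC3-DR replicate 1 (orange) and without both (grey crosses). Dashed lines are the medians of all tested transcripts (-0.13) and of those that reached 5 FPKM in 3 or more libraries (0.71); the interval of HSPB1 alone lies above 0, and no transcript passed after adjustment.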

How the data were processed

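The authors deposited normalized values per transcript, taken to be FPKM from their steps, because neither headers nor labels state a unit. Per the submitters' processing notes, the tools were bcl2fastq, DESeq, fastp, FastQC, featureCounts, HISAT2, limma, StringTie and TopHat2, and the build is mm9 although the organism is human. Versions, roles, annotation release and strand setting were not given in the sources used here. 0 columns belonged to no sample.

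Symbols were paired with identifiers by the rule that set the 10 members, all of which are named; the members and lists were chosen with earlier results of these data known. Library totals, lengths (200 to 60000 nt) and read numbers were recovered from the whole-read steps of the values, within 0.08 of a read, for 24927 of 24937 tested transcripts. Whether they count reads or fragments was not tested. Recovered lengths of HSPA1A and HSPA1B, 2483 and 2521 nt, may be set beside RefSeq gene spans of 2400 and 2517 nt.

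Testing took transcripts that reached 1 FPKM in 3 or more libraries and used limma 3.58.1 (R 4.3.3) on log2(FPKM + 1), two-sided, with an intensity trend, the group alone in the model and a Benjamini-Hochberg threshold of 0.05. This scale understates changes of low transcripts. HSP90AB1 failed this filter, and its reported p is from an exact permutation test (SciPy 1.17.1). The alternative without a filter fitted all 10 members in limma and called 0. Fitting and decoding were tested on simulated data. The simulated reads held no shift of single libraries like those of PC3 replicate 3 and PC3-DR replicate 1. They therefore do not give the power of the tests here. No 2 libraries shared more than 0.00204% of values. Upstream windows came from RefSeq tables (GRCh38.p14) and cover the 250 bases before each start. Alternatives covered pseudocount, filter, scaling, trend, robust hyperparameters, a replicate block, voom and left-out libraries. The lists of co-chaperones and cell markers could not be matched to identifiers and are not reported.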

Additional observations from a re-analysis of the deposited data

How the results depend on the processing

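No member passed at an adjusted p under 0.05 in limma under any alternative run, with adjusted p between 0.476 and 0.9996 for the 9 tested members, and between 0 and 4 members at an unadjusted p under 0.05. The 4 came without PC3 replicate 1, where 7.15% of all tested transcripts were under it, and the shares over the other alternatives lay between 2.93% and 9.33%. No member, HSPB1 included, was under it at a pseudocount of 5, at a filter of 5 FPKM, with quantile normalization or with robust hyperparameters. The same held without PC3 replicate 3, without PC3-DR replicate 1, without both and without PC3-DR replicate 3. Of 163 alternative values of single members, 14 reversed direction, 1 kept direction but moved in size, and 148 did neither. HSPA8 turned to -0.59 with a pseudocount of 0.1, to -2.90 with voom on recovered reads and to between -0.84 and 0.92 when single libraries were left out. HSPD1 turned to -0.16 and HSP90AA1 to -0.64 after quantile normalization, and HSPD1 to -0.067 with voom and to between -0.17 and 0.58 when single libraries were left out. Without PC3 replicate 3 and PC3-DR replicate 1 together, an alternative chosen after seeing the data, HSP90B1 turned to -0.31 and HSPA1B to -0.013, while with any 1 library left out they lay between 0.15 and 0.98 and between 0.33 and 1.40. HSP90AB1 moved from -0.04 to -0.18 with a pseudocount of 0.1, and quantile normalization, voom and the filter of 5 FPKM gave no value for it, nor that filter for HSPA8. The cause was not tested. The median difference of the members stayed between 0.12 (quantile normalization) and 0.95 (median of ratios), and between 0.23 and 0.90 when single libraries were left out.

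Over the whole table the 1 call in limma became 0 without a filter, without the trend, with voom, with median of ratios scaling, at a filter of 5 FPKM, with both libraries left out and at pseudocounts of 0.1 and 5 (between 57 and 3008 at an unadjusted p under 0.05), 6 with robust hyperparameters, and between 0 and 1 when single libraries were left out. With a replicate block it was 0 (1707 at an unadjusted p under 0.05, or 6.85%), with 0 members called and 3 at an unadjusted p under 0.05. Between a PC3 and a PC3-DR library with the same number, the correlation of deviations was 0.192 for replicate 1, -0.004 for replicate 2 and 0.093 for replicate 3. Between libraries with different numbers it ran from -0.182 to 0.113. The value for replicate 1 lay above this range and those for replicates 2 and 3 lay within it. Whether libraries with the same number were prepared as pairs was not tested. Low read numbers limit the listed HSP90AB1 transcript, with at most 9 reads per library. HSPA8 had 5 reads in PC3-DR replicate 1, although that library had the largest total. Its Poisson interval there, 0.017 to 0.124 FPKM, lay below the next lowest, 0.80 to 1.58 FPKM in PC3 replicate 3.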
